A study of Homo sapiens with 60 samples.

Results

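Samul-tang, a formula of 4 herbs used in traditional Korean medicine, was set against the 4 herbs it is made from, each given alone. The formula gave 3 libraries and the herbs gave 30, which together are 33 of the 60 libraries of the series. They were chosen by extract, as the sample labels name it, and by no measured value. All libraries came from HepG2, a human liver cancer line that keeps many hepatocyte functions, after 24 h with an extract made with 70% ethanol and freeze-dried. The herbs were Angelicae Gigantis Radix (the root of Angelica gigas), Paeoniae Radix (peony root), Cnidii Rhizoma (the rhizome of Cnidium) and Rehmanniae Radix Preparata (prepared Rehmannia root), called Angelica, Paeonia, Cnidium and Rehmannia from here. The 3 doses of every extract were 500, 100 and 20 µg/mL. Samul-tang had 1 library per dose, Angelica and Paeonia had 2 each, and Cnidium and Rehmannia had 3 each. Doses count the whole extract, and the labels do not give the proportions of the herbs in the formula, so the amount of each herb in a dose of Samul-tang is not known here.

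The single Samul-tang libraries were tested with the spread of the herbs' replicates, as if they vary alike, and no replicate checks them. The labels do not say whether replicates were separate cultures, so p-values measure the spread between these libraries, which may be technical. The sample codes start with 14 for Samul-tang, 11 for Angelica and Paeonia, and 12 for Cnidium and Rehmannia, and what this prefix stands for is not stated. Prefix and formula cannot be told apart against the herbs. Sagunja-tang, another formula with 2 libraries per dose, shares the prefix 14 and was compared separately, and 3 vehicle libraries (DMSO, with differing percentages in the labels and the series text) are shown as background. Depth ran from 21485882 to 31905804 counts over the 33 libraries. The hepatocyte markers, among them ALB and APOA1, reached 1 CPM (counts scaled to library size) in 11 of 11 cases in every library. Of 8 fibroblast markers 1 was at or over 1 CPM in every library (summed level 5.42 to 7.17 CPM in Samul-tang and 4.71 to 18.8 in the herbs), with DCN at 0 throughout. Of 8 immune markers 3 were at or over 1 CPM in every library (summed level 1411 to 1525 CPM and 1139 to 2477), with PTPRC at 0 throughout.

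Liver cells meet plant compounds with a few well-known programmes. The aryl hydrocarbon receptor (AhR) binds flat aromatic molecules and switches on CYP1A1, an oxidising enzyme. NRF2 is a transcription factor released by electrophiles and oxidative stress, and its targets make glutathione, import cystine and reduce quinones and aldehydes. HIF, the hypoxia-inducible factor, is stabilised when its oxygen- and iron-dependent hydroxylases are slowed, and raises genes of glucose uptake, glycolysis and oxygen supply. AhR binds with its partner ARNT at the core GCGTG, NRF2 with small MAF proteins at TGACNNNGC, and HIF at ACGTG.

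The 4 promoters below were chosen because they hold these letters, in a target of AhR, 2 targets of NRF2 and the glycolysis enzyme HK2, which is not on the hypoxia list used here. The same windows of PFKFB3 and PDK1 hold no ACGTG, and those of NQO1, AKR1C1 and PTGR1 no TGACNNNGC. They are the 200 bases before the RefSeq start of transcription (GRCh38.p14), printed 5′ to 3′ in the direction of the gene, with the match in capitals: chr15:74725529-74725728 (minus strand) for CYP1A1, chr1:93909431-93909630 (minus strand) for GCLM, chr12:104215579-104215778 (plus strand) for TXNRD1 and chr2:74833927-74834126 (plus strand) for HK2. The matches in GCLM and HK2 lie on the opposite strand and read GCTTAGTCA and CACGT here.
CYP1A1: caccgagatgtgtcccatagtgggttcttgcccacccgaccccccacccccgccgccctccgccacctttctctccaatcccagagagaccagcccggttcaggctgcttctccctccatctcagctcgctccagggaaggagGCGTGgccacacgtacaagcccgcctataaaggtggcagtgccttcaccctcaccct
GCLM: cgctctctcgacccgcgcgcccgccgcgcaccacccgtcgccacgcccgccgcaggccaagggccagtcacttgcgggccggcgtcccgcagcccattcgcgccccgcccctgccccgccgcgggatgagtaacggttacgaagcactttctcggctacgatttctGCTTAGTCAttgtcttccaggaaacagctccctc
TXNRD1: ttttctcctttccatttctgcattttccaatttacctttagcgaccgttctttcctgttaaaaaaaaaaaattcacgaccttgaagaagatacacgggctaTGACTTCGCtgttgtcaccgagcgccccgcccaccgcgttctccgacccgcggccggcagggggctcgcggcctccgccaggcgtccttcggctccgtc
HK2: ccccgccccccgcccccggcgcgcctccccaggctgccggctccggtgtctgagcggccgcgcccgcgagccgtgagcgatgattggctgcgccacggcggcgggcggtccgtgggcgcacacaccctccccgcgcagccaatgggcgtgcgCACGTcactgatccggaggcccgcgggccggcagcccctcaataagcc

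On either strand, GCGTG stood in 28.2% of 35116 promoters of this length, TGACNNNGC in 9.23% and ACGTG in 15.6%. Among listed targets with a promoter in the table, 4 of 6 AhR genes, 4 of 18 NRF2 genes and 7 of 16 hypoxia genes held their own core. A match describes these letters and says nothing on binding in these cells.

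At 500 µg/mL Samul-tang lay about as near to Rehmannia as Rehmannia replicates lay to each other, and it lay farthest from Paeonia. The distance is the median absolute difference in log2 CPM over 10485 genes. At 500 µg/mL it was 0.0687 to 0.0903 from the Rehmannia libraries, 0.0912 to 0.104 from Angelica, 0.0936 to 0.112 from Cnidium and 0.207 to 0.215 from Paeonia. Replicates of 1 herb at that dose were 0.0613 to 0.0879 apart. Only the Paeonia libraries stood clear of all other distances at 500 µg/mL, and at 20 µg/mL the distances of the 4 herbs overlapped, from 0.0587 to 0.124. At 100 µg/mL Rehmannia (0.0631 to 0.0742) lay nearer than Angelica (0.0824 to 0.0984) and Paeonia (0.0776 to 0.107), with Cnidium between (0.0648 to 0.0834). Sagunja-tang, the formula that shares the code prefix of Samul-tang, had mean distances of 0.0926, 0.0631 and 0.0678 at 500, 100 and 20 µg/mL. Rehmannia had 0.0782, 0.0677 and 0.0924 and Cnidium 0.102, 0.0724 and 0.0740 in the same order. By these means Sagunja-tang lay nearer than any herb at 100 and 20 µg/mL, though single libraries overlapped. At 500 µg/mL Rehmannia lay nearer. The part of the prefix in these distances was not tested.

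**Figure D1:**
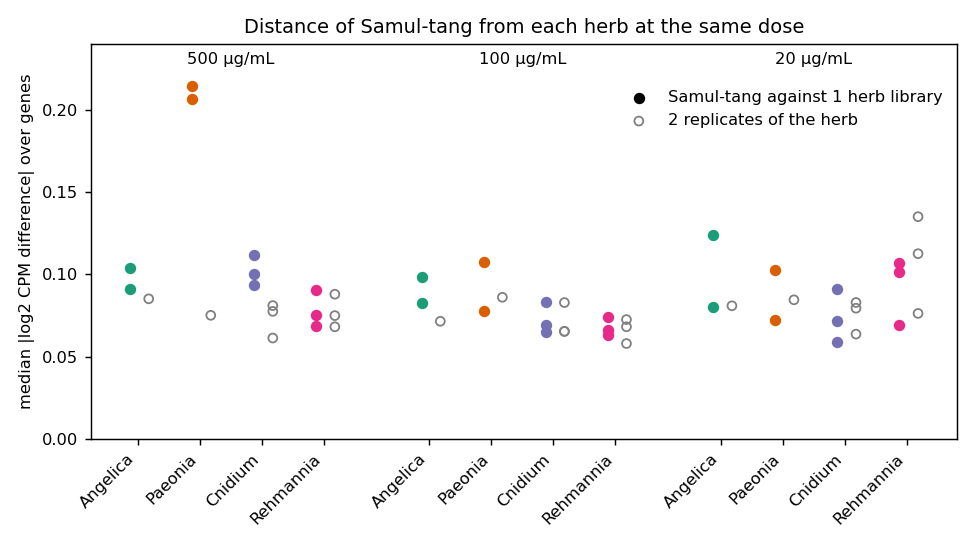
Median absolute log2 CPM difference over 10485 genes (y axis) between the Samul-tang library and each herb library of the same dose (filled points) and between replicates of a herb (open points), by herb and dose. Paeonia at 500 µg/mL lies at 0.207 to 0.215, above the other filled points, and at 20 µg/mL the herbs overlap.

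With dose as a block and the 30 herb libraries as one group, no gene told Samul-tang from its herbs. Of 15617 genes tested with edgeR's quasi-likelihood test, 0 (0%) were called at an adjusted p below 0.05, 804 had an unadjusted p below 0.05 and DESeq2 called 3, all lower in Samul-tang. In this model the differences between herbs are part of the spread. The smallest adjusted p was 0.13, shared by ZHX2, a transcriptional repressor (−0.25 ± 0.05, log2 with SE), PFKFB3, a kinase-phosphatase that drives glycolysis (−0.81 ± 0.16), and NAV2, a neuron navigator protein (−0.20 ± 0.04), and these values were below 0 for all 3. CYP1A1 had a log2 difference of 0.98 ± 0.52 (edgeR adjusted p = 0.95).

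A fit that gave each extract and dose its own mean, and weighted the 4 herbs equally, took the spread from replicates alone and called 144 genes (0.922%), 34 higher and 110 lower in Samul-tang. They held 12 of the 19 hypoxia targets, all lower, and 3 of 18 glycolysis enzymes, all lower (HK2, ALDOC and LDHA), beside CYP1A1 and NQO1 as the 2 AhR targets that were higher. The median log2 difference was −0.30 over the 19 hypoxia targets and 0.00 over all genes.

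A plain ordering asked which genes lay outside every herb library of their dose at all 3 doses. Samul-tang was above all 10 herb libraries at each dose for 26 genes (0.166%) and below them for 35 genes (0.224%). The lower set held 5 of the 19 hypoxia targets, namely PFKFB3, NDRG1, LOX, BHLHE40 and PDK1, and also HK2, VEGFB, EPO, FOXO1 and GYS1. The higher set held FGFR4, a fibroblast growth factor receptor, CFI, a complement inhibitor, NADK, which makes NADP, and the actin-severing GSN, and none of the hypoxia list. EPO encodes erythropoietin, FOXO1 a transcription factor restrained by insulin, VEGFB a growth factor and GYS1 glycogen synthase.

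From 8 to 18 of 19 hypoxia targets were called lower in Samul-tang than in a herb, depending on the herb. PFKFB3 (ENSG00000170525, chr10:6144934-6254644 in GRCh38) stood at 7.14, 6.49 and 6.65 CPM at 500, 100 and 20 µg/mL of Samul-tang. The lowest, median and highest of the 10 herb libraries were 10.3, 12.7 and 20.7 CPM at 500 µg/mL, 10.4, 12.9 and 15.1 at 100 and 6.83, 9.35 and 13.4 at 20. Samul-tang was thus under every herb library at each dose, with the smallest gap at 20 µg/mL, where 1 Cnidium library came close. The vehicle libraries held 2.36, 2.81 and 1.85 CPM, below Samul-tang.

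Over the 3 doses the PFKFB3 log2 difference was −0.71 ± 0.14 (edgeR adjusted p = 0.0097) against Angelica, −0.95 ± 0.14 (edgeR adjusted p = 2.3e-05) against Paeonia, −0.70 ± 0.13 (edgeR adjusted p = 0.0027) against Cnidium and −0.88 ± 0.13 (edgeR adjusted p = 4.3e-04) against Rehmannia. All 4 differences had the same direction. NDRG1, a stress-induced cytoplasmic protein, stood at 66.3, 63.9 and 58.8 CPM at 500, 100 and 20 µg/mL of Samul-tang, while the herb libraries ran from 66.5 to 194 at 500, from 84.8 to 99.2 at 100 and from 69.9 to 90.7 CPM at 20 µg/mL. PDK1, a kinase that inhibits pyruvate dehydrogenase, stood at 47.7, 47.8 and 42.3 CPM at 500, 100 and 20 µg/mL of Samul-tang. Its herb libraries ran from 48.1 to 96.8, from 59.3 to 70.3 and from 49.9 to 56.8 CPM in the same order. Neither gene overlapped with the herbs at any dose, though at 500 µg/mL the lowest Cnidium libraries were next to Samul-tang. LOX, a collagen cross-linking oxidase, differed by −0.39 ± 0.06 (edgeR adjusted p = 6.9e-04) from Angelica and by −0.46 ± 0.05 (edgeR adjusted p = 2.7e-05) from Rehmannia.

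Of the 19 hypoxia targets, 9 were lower in Samul-tang than in Angelica (1, the glucose transporter SLC2A1, was higher), 18 lower than in Paeonia, 8 lower than in Cnidium and 12 lower than in Rehmannia. The shares of all genes called lower in these comparisons were 1.31%, 10.6%, 1.01% and 0.455%. The list medians were −0.24, −0.56, −0.17 and −0.28, while the median over all genes was close to 0 in each. NDRG1, BNIP3, PDK1, LOX, PFKFB3, PFKFB4 and BHLHE40 were lower against each of the 4 herbs. Against Cnidium some of these calls were lost in edgeR: BNIP3 with the replicate block (adjusted p = 0.13) and without either replicate of Angelica (0.060 for each) or Paeonia (0.061 for each) or Cnidium replicate 2 or 3 (0.15 and 0.11), PFKFB4 without the same Cnidium replicates (0.054 and 0.055), and BHLHE40 without Cnidium replicate 2 (0.051). Against Angelica BHLHE40 was not called without Angelica replicate 2 (edgeR adjusted p = 0.066), and without Cnidium replicate 2 the count against Cnidium was 4. CA9, a carbonic anhydrase, was lower against Paeonia and Rehmannia, and it was at −0.40 ± 0.13 against Angelica and 0.09 ± 0.12 against Cnidium, neither called.

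As a median over the list, each library relative to the mean of the 33, Samul-tang stood at −0.28, −0.20 and −0.37 at 500, 100 and 20 µg/mL. The vehicle libraries stood lower, from −0.69 to −0.58, and the 500 µg/mL Paeonia libraries highest, at 0.77 and 0.89. Cnidium at 500 µg/mL, at −0.27, −0.25 and −0.24, was level with Samul-tang. Sagunja-tang, of the same prefix, stood at −0.29 and −0.42 at 500, 0.06 and 0.01 at 100, and −0.25 and −0.15 at 20 µg/mL, so it was at or below Samul-tang at 500 and above it at 100 and 20. Against Sagunja-tang, where 6 of all 15617 genes (0.0384%) were called, 0 of the 19 targets were.

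Some of the 13 transcripts of the mitochondrial genome were lower in Samul-tang than in Angelica and Paeonia. All genes of the mitochondrial chromosome, these 13 included, made up 14.0 to 15.2% of counts in Samul-tang. This share was 16.8 to 21.9% in Angelica, 16.6 to 22.1% in Paeonia, 15.3 to 19.5% in Cnidium and 11.0 to 18.9% in Rehmannia. It was 13.1 to 17.4% in Sagunja-tang and 13.6 to 15.3% in vehicle. Samul-tang lay below all Angelica, Paeonia and Cnidium libraries and inside the range of Rehmannia, Sagunja-tang and vehicle. Of the 13 genes, 6 were lower than in Angelica and 6 lower than in Paeonia, with list medians of −0.53 and −0.43. Of all genes, 1.31% and 10.6% were called lower in these 2 comparisons. None were called against Cnidium or Rehmannia. Angelica and Paeonia share the prefix 11, and Cnidium and Rehmannia the prefix 12, so herb and prefix cannot be told apart in this split. MT-ND6, a subunit of respiratory complex I, differed by −0.76 ± 0.21 (edgeR adjusted p = 0.046) from Angelica. These counts depended on single libraries and on the filter: without Angelica replicate 3 the first was 0, and without Paeonia replicate 2 the second was 0. Without the 20 µg/mL library of Rehmannia replicate 1 they were 13 and 12, and without the low count filter 13, 13, 12 and 9 were lower against Angelica, Paeonia, Cnidium and Rehmannia. The part of mitochondrial RNA content in the hypoxia comparison was not tested.

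CYP1A1 was highest in Angelica among these 5 extracts, with Samul-tang next and the other 3 herbs below. CYP1A1 (ENSG00000140465, chr15:74719542-74725610 in GRCh38) stood at 87.0, 42.1 and 23.8 CPM at 500, 100 and 20 µg/mL of Samul-tang. At 500 µg/mL Angelica held 99.0 and 95.4 CPM, Paeonia 55.3 and 57.0, Rehmannia 21.1, 21.9 and 20.8 and Cnidium 12.6, 13.8 and 12.9. At 20 µg/mL Angelica held 35.3 and 35.8 CPM, Paeonia 10.9 and 10.5, Rehmannia 9.55, 10.7 and 10.2 and Cnidium 8.53, 9.21 and 9.37. The groups did not overlap at either dose except Paeonia with Rehmannia at 20 µg/mL, and vehicle held 12.0, 11.7 and 11.8 CPM, slightly above the herbs other than Angelica at 20 µg/mL.

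Over the 3 doses CYP1A1 in Samul-tang was −0.38 ± 0.04 (edgeR adjusted p = 3.3e-05) log2 units from Angelica, which was higher. It was 1.16 ± 0.05 (edgeR adjusted p = 3.4e-15) from Paeonia, 1.76 ± 0.04 (edgeR adjusted p = 1.3e-20) from Rehmannia and 2.11 ± 0.04 (edgeR adjusted p = 1.6e-22) from Cnidium, higher in Samul-tang in all 3. At 500 µg/mL it was 1.31 ± 0.06 (edgeR adjusted p = 2.9e-14) above the equal mean of the 4 herbs. Sagunja-tang, with 383 and 401 CPM at 500 µg/mL, stood well above all of them, and its 20 µg/mL libraries, at 13.8 and 14.3 CPM, below Samul-tang. The AhR target TIPARP, an ADP-ribosyltransferase, stood at 23.2, 22.9 and 23.0 CPM at 500, 100 and 20 µg/mL of Samul-tang, with a difference of 0.04 ± 0.05 from Cnidium. Of the 7 AhR targets tested, CYP1A1 and NQO1 were called against Rehmannia, CYP1A1 and ALDH3A1 against Cnidium, and these 3 against Paeonia, all higher in Samul-tang, while against Angelica NQO1 was higher and CYP1A1 lower.

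Against Angelica, the herb whose CYP1A1 level lay nearest, 379 genes (2.43%) were called over the 3 doses, 174 higher (1.11%) and 205 lower (1.31%) in Samul-tang. Some targets of NRF2 and of ATF4, the factor of amino acid shortage, were higher: 7 of 24 and 6 of 28 were called higher and none lower, with list medians of 0.12 and 0.14. SLC7A11, the cystine importer that is on both lists, stood at 61.9, 36.8 and 29.9 CPM at 500, 100 and 20 µg/mL of Samul-tang, and Angelica held 31.9 and 36.7 CPM at 500, 31.4 and 31.0 at 100 and 30.6 and 30.5 at 20 µg/mL. Samul-tang was above both Angelica libraries at 500 and 100 µg/mL and below them at 20, and the mean difference was 0.35 ± 0.05 (edgeR adjusted p = 5.6e-04). ASNS, asparagine synthetase, was at 0.38 ± 0.04 (edgeR adjusted p = 3.1e-05) and AKR1B10, an aldehyde reductase, at 0.37 ± 0.06 (edgeR adjusted p = 0.0010).

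The largest values by the naming rule were MT-ATP8 (−1.11), HAMP (−0.92), MTATP6P1 (−0.83), MT-ND6 and PFKFB3 on the lower side, and S100A6 (0.54), CGRRF1 (0.53), MATN3 (0.50), TSSC4 (0.45) and KRT10-AS1 (0.42) on the higher side. MTATP6P1 is a nuclear copy of a mitochondrial gene, and its reads cannot be told apart from those of the original with certainty. MATN3, an extracellular matrix protein, stood at 109, 127 and 125 CPM at 500, 100 and 20 µg/mL of Samul-tang, against 69.7 and 69.2, then 93.1 and 82.2, then 106 and 95.2 CPM in the same order in Angelica. It was above both libraries at each dose. The count of 379 depended on the libraries kept: it was 45 without Angelica replicate 3, 76 without the 20 µg/mL library of that replicate alone, 170 without Cnidium replicate 2, 248 without Rehmannia replicate 3 and 792 without Rehmannia replicate 1. Of the genes listed as largest, MT-ATP8 (adjusted p = 0.087), MTATP6P1 (0.11), MT-ND6 (0.17), S100A6 (0.21), CGRRF1 (0.068), TSSC4 (0.16) and KRT10-AS1 (0.31) were not called without Angelica replicate 3 by the same edgeR test, and 4 NRF2 and 2 ATF4 targets were called higher then.

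Against Paeonia 3259 genes (20.9%) were called, 1607 higher (10.3%) and 1652 lower (10.6%) in Samul-tang, the most of any herb. Cell division genes were higher in Samul-tang than in Paeonia: 19 of 23 DNA replication and 19 of 22 mitosis genes were called, among them MCM2, PCNA, CDK1 and CCNB1, with medians of 0.24 and 0.21. Relative to the mean of the 33 libraries, the DNA replication median was −0.42 and −0.48 in Paeonia at 500 µg/mL. In Paeonia at 100 and 20 µg/mL it was −0.08 to −0.003. Samul-tang stood at −0.01, 0.06 and 0.05 at 500, 100 and 20 µg/mL, and vehicle at 0.17 to 0.22. Genes of sterol synthesis were lower, 14 of 22 with a median of −0.20, as were 10 of 13 insulin and FOXO targets (median −0.48), 10 of 13 immediate early genes (−0.39) and 14 of 28 ATF4 targets (−0.15). The median over all genes was 0.00. Relative to the 33 libraries, the sterol median was 0.39 and 0.43 in Paeonia at 500 µg/mL and 0.01 to 0.09 at 100 and 20. Samul-tang stood at −0.10, 0.04 and 0.04 at 500, 100 and 20 µg/mL, and vehicle at 0.09 to 0.13. Of the metallothioneins, which bind zinc and copper, 4 of 7 were higher (2 without Paeonia replicate 3), and 9 of 15 heat shock chaperones were higher.

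IGFBP1 (ENSG00000146678, chr7:45888357-45893668), an insulin-repressed binding protein of insulin-like growth factors, stood at 234, 252 and 212 CPM at 500, 100 and 20 µg/mL of Samul-tang. Paeonia held 1952 and 2097 CPM at 500, 366 and 381 at 100 and 283 and 311 at 20 µg/mL. Samul-tang was below all 6 Paeonia libraries with little change over dose, and the mean difference was −1.39 ± 0.09 (edgeR adjusted p = 6.1e-11). At 500 µg/mL the other herbs held 178 and 177 (Angelica), 141, 128 and 146 (Cnidium) and 349, 336 and 341 CPM (Rehmannia), so Samul-tang lay between them, and vehicle held 108, 119 and 132. G6PC1, which releases glucose in gluconeogenesis, showed the same placement with 18.9, 18.6 and 18.3 CPM at 500, 100 and 20 µg/mL of Samul-tang and 51.8 and 53.2 CPM in Paeonia at 500 µg/mL, a mean difference of −0.88 ± 0.06 (edgeR adjusted p = 5.8e-11).

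The metallothionein MT1G stood at 79.9, 117 and 131 CPM at 500, 100 and 20 µg/mL of Samul-tang, and Paeonia held 15.1 and 13.5 CPM at 500, 92.7 and 81.2 at 100 and 120 and 101 at 20 µg/mL. Samul-tang was above Paeonia at each dose, by 1.05 ± 0.15 (edgeR adjusted p = 1.6e-05) on average, though the metallothionein genes are near-copies and reads can be split among them. The immediate early factor EGR1 held 20.5, 19.4 and 20.1 CPM at 500, 100 and 20 µg/mL in Samul-tang and 103 and 110 CPM in Paeonia at 500 µg/mL, with a mean difference of −1.06 ± 0.09 (edgeR adjusted p = 3.3e-09). IGFBP3 (−1.33), DEPP1 (−1.22), a FOXO target, and TNS1 (−1.17), a focal adhesion protein, were the other large lower values, and ID3 (0.76), a BMP target, and MT1F (0.75) the other higher ones beside CYP1A1 and ZNG1F. Without Paeonia replicate 2 the count was 1851, and the mitosis count fell to 12 of 22 without Paeonia replicate 3.

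Against Cnidium 423 genes (2.71%) were called, 265 higher (1.7%) and 158 lower (1.01%) in Samul-tang. NRF2 targets made up the largest listed group on the lower side: 14 of 24 were lower and none higher, all 24 values were below 0 and the median was −0.24. AKR1B10 (ENSG00000198074, chr7:134527592-134541408) stood at 116, 54.2 and 41.2 CPM at 500, 100 and 20 µg/mL of Samul-tang, and Cnidium held 350, 334 and 360 CPM at 500, 72.6, 73.4 and 77.0 at 100 and 34.9, 42.1 and 37.3 at 20 µg/mL. Samul-tang was below all Cnidium libraries at 500 and 100 µg/mL and within their range at 20, and the mean difference was −0.64 ± 0.06 (edgeR adjusted p = 3.9e-08). Against the other 3 herbs AKR1B10 was higher in Samul-tang, by 0.37 ± 0.06, 0.45 ± 0.06 and 0.41 ± 0.05 for Angelica, Paeonia and Rehmannia.

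PTGR1, which reduces reactive aldehydes and prostaglandins, was at −0.67 ± 0.05 (edgeR adjusted p = 1.2e-08) against Cnidium, and GSTA1, a glutathione transferase with close paralogs, at −0.66 ± 0.06 (edgeR adjusted p = 4.7e-08). Of 15 heat shock chaperones 6 were lower, which fell to 2 without Cnidium replicate 2, and 5 of 13 fatty acid synthesis genes were higher, among them FASN and SREBF1. BMF, a pro-apoptotic BCL2 relative, held 12.7, 13.5 and 14.3 CPM at 500, 100 and 20 µg/mL in Samul-tang and 5.01, 4.17 and 4.22 CPM in Cnidium at 500 µg/mL, with a mean difference of 0.79 ± 0.06 (edgeR adjusted p = 2.2e-09), and UBD, a ubiquitin-like modifier, was at 0.60 ± 0.06. MATN3 was higher here too, at 0.53 ± 0.05. The signal recognition particle RNAs RN7SL1 and RN7SL2 (log2 difference of −1.25 for the latter) were lower against Cnidium and also against Rehmannia. With the replicate block edgeR called neither RNA against either herb. Against Cnidium RN7SL2 was also not called without Cnidium replicate 2 or 3, nor RN7SL1 without replicate 3. Against Rehmannia RN7SL1 was not called when Rehmannia replicate 1, 2 or 3 was left out. Both herbs have the prefix 12, so herb and prefix cannot be told apart here. As RNAs without a poly(A) tail and near-copies of each other, RN7SL1 and RN7SL2 are uncertain in an mRNA library. Without Cnidium replicate 2 the count was 221 and that of lower hypoxia targets 4.

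Against Rehmannia, the nearest herb at 500 µg/mL, 97 genes (0.621%) were called, 26 higher (0.166%) and 71 lower (0.455%) in Samul-tang. The lower side held 12 of the 19 hypoxia targets, 3 of 13 fatty acid synthesis genes (SCD, FADS2 and ACSL3) and 3 of 13 insulin and FOXO targets (IGFBP1, G6PC1 and DEPP1). The higher side held 3 of 24 NRF2 targets, namely NQO1, TXNRD1 and AKR1B10. TUBB1, a beta-tubulin, held 8.97, 10.7 and 8.63 CPM at 500, 100 and 20 µg/mL in Samul-tang, and Rehmannia 15.6, 15.2 and 13.4 CPM at 500, 16.3, 16.4 and 14.9 at 100 and 15.3, 14.5 and 13.3 at 20 µg/mL. No library overlapped, and the difference was −0.68 ± 0.07 (edgeR adjusted p = 4.1e-06). UGT1A1, which conjugates bilirubin, was at 0.36 ± 0.07, MRAS, a RAS relative, at 0.29 ± 0.05 and DNASE2, a lysosomal nuclease, at 0.32 ± 0.07. A model with 1 term per dose and per extract, in which herbs that respond unevenly to dose add to the spread, called 21 genes against Angelica, 1154 against Paeonia, 12 against Cnidium and 1 against Rehmannia. The count of 97 was 49 without Rehmannia replicate 2, where NQO1 (adjusted p = 0.10), TXNRD1 (0.092) and DNASE2 (0.12) were not called by edgeR. DNASE2 was also not called without Rehmannia replicate 1 or either Angelica replicate. TXNRD1 was also not called without Rehmannia replicate 1, Cnidium replicate 2 or 3, or either Paeonia replicate. FADS2 was not called without Rehmannia replicate 3 or either Paeonia replicate, with the replicate block, or without the low count filter.

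Dose by dose, the single Samul-tang libraries differed most from the herbs at 500 µg/mL. At that dose 87 genes (0.557%) differed from the equal mean of the herbs, 25 (0.16%) from Angelica, 4758 (30.5%) from Paeonia, 573 (3.67%) from Cnidium and 15 (0.096%) from Rehmannia. The 87 held 8 hypoxia targets and 3 of 13 immediate early genes (EGR1, IER3 and DUSP1), all lower. This herb mean includes Paeonia, whose hypoxia list medians at 500 µg/mL were 0.77 and 0.89. Cnidium (−0.27 to −0.24) was level with Samul-tang (−0.28), and Angelica and Rehmannia lay between Cnidium and Paeonia. At 100 µg/mL the counts were 7 (0.0448%) from the mean, 2 (0.0128%) from Angelica, 22 (0.141%) from Paeonia, 12 (0.0768%) from Cnidium and 2 (0.0128%) from Rehmannia. At 20 µg/mL they were 2 (0.0128%) from the mean, CYP1A1 higher and TUBB1 lower, 1 (0.0064%) from Angelica, 3 (0.0192%) from Paeonia, 1 (0.0064%) from Cnidium and 2 (0.0128%) from Rehmannia. The count at 500 µg/mL against the mean ran from 38 to 51 without Angelica replicate 2, either Paeonia replicate, Cnidium replicate 2 or Rehmannia replicate 3, and it was 152 without the 20 µg/mL library of Rehmannia replicate 1. Over all 16 alternatives, the unfiltered genes included, the counts at 500 µg/mL ran from 4 to 320 against Angelica, 3664 to 5133 against Paeonia, 365 to 714 against Cnidium and 11 to 143 against Rehmannia.

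The dose step, 500 against 20 µg/mL, used only the 2 outer Samul-tang libraries and no herb library for its value. It called 43 genes (0.275%), 29 higher (0.186%) and 14 lower (0.0896%) at 500 µg/mL, and 67 without Rehmannia replicate 1, which enters through the shared spread. Defence genes led the rise: 13 of 24 NRF2 targets and 2 of 7 AhR targets rose and none fell, with medians of 0.45 and 0.83 against 0.00 over all genes. None of 19 hypoxia targets, 22 sterol synthesis genes (median −0.14) or 20 secreted hepatocyte proteins (median −0.16) were called by edgeR. CYP1A1 rose by 1.87 ± 0.09 (edgeR adjusted p = 2.0e-13) and AKR1B10 by 1.49 ± 0.12 (edgeR adjusted p = 1.0e-08).

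Among NRF2 targets, SLC7A11 rose by 1.05 ± 0.10 (edgeR adjusted p = 4.5e-07). GCLM, the modifier subunit of glutamate-cysteine ligase, stood at 57.9, 38.6 and 28.4 CPM at 500, 100 and 20 µg/mL and rose by 1.03 ± 0.10 (edgeR adjusted p = 1.4e-06). NQO1, a quinone reductase that both AhR and NRF2 raise, stood at 643, 434 and 361 CPM at 500, 100 and 20 µg/mL and rose by 0.83 ± 0.09 (edgeR adjusted p = 2.4e-06). All 3 had their highest level at 500 and their lowest at 20 µg/mL, and GCLM and NQO1 at 20 µg/mL lay near vehicle, which held 27.8, 26.1 and 29.5 and 392, 372 and 355 CPM. TXNRD1, thioredoxin reductase, rose by 0.60 ± 0.08, PTGR1 by 0.78 ± 0.11, AKR1C1 by 0.79 ± 0.10 and GCLC, the catalytic subunit, by 0.45 ± 0.07. HMOX1, heme oxygenase, had 0.33 ± 0.12 and was not called (edgeR adjusted p = 0.38). AKR1C1 and AKR1C2 are close in sequence, and reads can be split between them.

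The lower side held HAMP and KNG1, both secreted by hepatocytes. HAMP (ENSG00000105697, chr19:35280716-35285143), the iron hormone hepcidin, stood at 1.55, 2.68 and 4.76 CPM at 500, 100 and 20 µg/mL of Samul-tang, a step of −1.62 ± 0.32 (edgeR adjusted p = 0.014). Paeonia held 0.333 and 0.414 CPM at 500, 1.55 and 1.79 at 100 and 2.42 and 2.04 at 20 µg/mL, while at 500 µg/mL Angelica held 5.18 and 4.74, Cnidium 4.36, 4.41 and 4.57 and Rehmannia 4.27, 3.83 and 3.34. At 500 µg/mL Samul-tang thus lay between Paeonia and the other 3 herbs, with no overlap. The HAMP step was −2.54 ± 0.35 (edgeR adjusted p = 2.5e-06) in Paeonia, and −0.06 ± 0.19, −0.08 ± 0.15 and 0.09 ± 0.17 in Angelica, Cnidium and Rehmannia, none of the 3 called. KNG1, kininogen, stood at 5.99, 8.26 and 10.5 CPM at 500, 100 and 20 µg/mL, a step of −0.80 ± 0.14 (edgeR adjusted p = 0.0057). SGK1, a serum-induced kinase (−0.66), YPEL3 (−0.62) and MAB21L4 (−0.92) were lower as well, and the calls of YPEL3 and MAB21L4 were lost without Rehmannia replicate 3 (edgeR adjusted p = 0.072 and 0.086), among other single replicates.

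**Figure D2:**
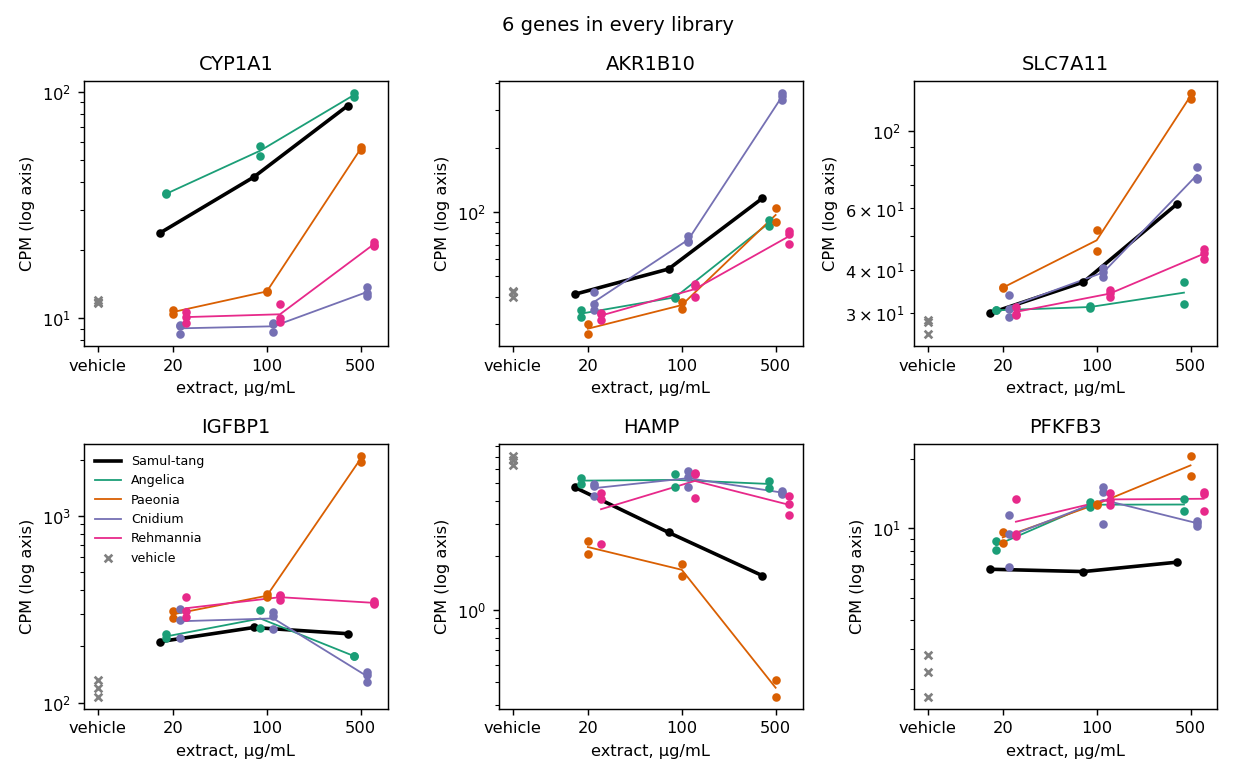
CPM on a log axis against extract dose for CYP1A1, AKR1B10, SLC7A11, IGFBP1, HAMP and PFKFB3, 1 point per library, lines through the group means, and crosses for vehicle. Samul-tang (black) runs just under Angelica in CYP1A1, between Paeonia and the other herbs at 500 µg/mL in HAMP, and under all herbs in PFKFB3.

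Most Samul-tang step genes also moved with dose in the herbs. By the same test 194 genes (1.24%) were called for the step of Angelica, 5316 (34%) for Paeonia, 3244 (20.8%) for Cnidium and 244 (1.56%) for Rehmannia, from 2 or 3 libraries per dose. Of the 43 Samul-tang genes, 28 (65.1%) were called in the same direction in Angelica, 30 (69.8%) in Paeonia, 37 (86.0%) in Cnidium and 31 (72.1%) in Rehmannia. These made up 14.4%, 0.564%, 1.14% and 12.7% of all genes called for each herb's step. In Paeonia 6 of the 43 were called in the opposite direction, and in the other herbs none.

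Called in the same direction in all 4 herbs were 17 genes, among them CYP1A1, NQO1, AKR1B10, AKR1C1, AKR1C2, GCLM, GCLC, TXNRD1, PTGR1, OSGIN1, PIR, UGDH and CYP24A1. Called in the same direction in 1 herb were YPEL3, HAMP and DLK1 (YPEL3 was called in the opposite direction in Paeonia), and in none SYNM-AS2, an antisense transcript. NRF2 targets rose in every herb, with 16 of 24 called higher in Angelica, 17 in Paeonia (2 fell), 24 in Cnidium and 18 in Rehmannia. Of all 15617 genes, 76, 2793, 1580 and 134 were called higher in the same order. For AKR1B10 the step was 1.49 ± 0.12 in Samul-tang, 1.41 ± 0.09 in Angelica, 1.77 ± 0.09 in Paeonia, 3.19 ± 0.07 in Cnidium and 1.23 ± 0.07 in Rehmannia. For GCLM these were 1.03 ± 0.10, 0.44 ± 0.08, 0.59 ± 0.08, 1.73 ± 0.06 and 0.69 ± 0.06 in the same order.

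The step of Samul-tang was then tested directly against that of each herb. Against the equal mean of the 4 herb steps 0 genes (0%) were called by edgeR, where 927 had an unadjusted p below 0.05, and 1 by DESeq2. Against Angelica alone 1 gene was called (0.0064%), SLC7A11, and against Rehmannia alone 1 (0.0064%), CYP1A1. Against Cnidium 104 genes were called (0.666%) and against Paeonia 2153 (13.8%). The SLC7A11 step was larger in Samul-tang than in Angelica by 0.88 ± 0.12 (edgeR adjusted p = 0.0025), a call that was lost without Angelica replicate 2 (0.78, edgeR adjusted p = 0.17). The CYP1A1 step was larger than in Rehmannia by 0.80 ± 0.11 (edgeR adjusted p = 0.0016).

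Against Cnidium the smaller step of Samul-tang covered 14 of 24 NRF2 targets, all 24 values being below 0 with a median of −0.51. AKR1B10 differed by −1.70 ± 0.13 (edgeR adjusted p = 1.8e-08), PTGR1 by −1.58 ± 0.13, AKR1C1 by −1.51 ± 0.12 and GCLM by −0.70 ± 0.12. CYP1A1 went the other way, with a step larger in Samul-tang by 1.33 ± 0.11 (edgeR adjusted p = 2.0e-08), as did 4 of 13 insulin and FOXO targets, among them IGFBP1 and G6PC1, which fell with dose in Cnidium and were not called in Samul-tang. Against Paeonia the difference, Samul-tang step minus Paeonia step, was called below 0 for 16 of 19 hypoxia targets (median −0.95). So it was for 16 of 22 sterol genes (−0.50) and 11 of 13 immediate early genes (−1.35). It was called above 0 for 18 of 22 mitosis genes (0.56), a sign that a fall with dose in Paeonia also gives. The DNA replication list median in Paeonia was −0.42 and −0.48 at 500 and −0.03 and −0.003 at 20 µg/mL. In Samul-tang it was −0.01 and 0.05 at these doses. IGFBP1 differed from Paeonia by −2.63 ± 0.21 (edgeR adjusted p = 8.5e-09) and MT1G by 2.24 ± 0.39 (edgeR adjusted p = 2.4e-04). Without Paeonia replicate 3 the count against Paeonia was 1279, and 11 of the hypoxia targets were called.

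A herb's own step genes were those called for its step whose step also differed, in the same direction, from the mean step of the other 3 herbs. There were 66 for Angelica (0.423%), 4199 for Paeonia (26.9%), 1386 for Cnidium (8.87%) and 7 for Rehmannia (0.0448%), and these herb values chose them. Samul-tang libraries took no part in that choice. Turned to the herb's direction, the median Samul-tang step was 0.10 over the Angelica genes, 0.01 over Paeonia, 0.12 over Cnidium and 0.18 over Rehmannia, against herb medians of 0.33, 0.43, 0.33 and 0.34. The share with the herb's sign was 80.3%, 52.7%, 80.7% and 71.4%, where over all genes it was 56.0%, 52.5%, 62.3% and 58.5%. The Samul-tang step followed the Cnidium genes in sign at a smaller size and stood near 0 over the Paeonia genes. Without Angelica replicate 3 the Samul-tang medians over the Angelica and Rehmannia genes were −0.0656 and −0.0839, and without Paeonia replicate 3 that over the Rehmannia genes was −0.0384, so both signs rest on single replicates.

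Across genes Pearson's r between the 2 steps was 0.04 over the 4199 Paeonia genes and 0.73 over the 1386 Cnidium genes. It was 0.04 over the 66 Angelica genes and 0.92 over the 7 Rehmannia genes, which are few. Whether single extreme genes set any of these values was not tested. Genes are not independent replicates, and all steps share the same 2 Samul-tang libraries. Of the Cnidium genes with the largest rises, AKR1C2 rose by 1.02 ± 0.12 in Samul-tang and by 2.46 ± 0.07 in Cnidium, and SLC5A11, a myo-inositol transporter, had 1.37 ± 0.34 (not called, edgeR adjusted p = 0.098) and 2.55 ± 0.20. Of the Paeonia genes, FOS had 0.24 ± 0.33 in Samul-tang (not called) and 2.37 ± 0.21 in Paeonia. Of the Angelica genes, FADS2, a fatty acid desaturase, fell in both, with −0.36 ± 0.07 in Samul-tang and −0.55 ± 0.05 in Angelica.

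Samul-tang and Sagunja-tang, the formulas that share a code prefix, differed in 6 genes (0.0384%) over 9 libraries with dose as a block. Among them were TMCC1, a membrane protein of the endoplasmic reticulum (−0.41 ± 0.06), SGK1 (0.36 ± 0.05) and FAM20A, a kinase-like secretory protein (0.29 ± 0.05), where values above 0 are higher in Samul-tang. TMCC1 held 67.0, 60.3 and 52.1 CPM at 500, 100 and 20 µg/mL of Samul-tang, and Sagunja-tang held 98.5 and 93.8 CPM at 500, 81.7 and 87.5 at 100 and 55.9 and 65.0 at 20 µg/mL. Samul-tang was below both libraries of each dose. TMCC1 was also among the 35 genes below every herb library. The model has 5 residual degrees of freedom and lets doses differ only by a shared shift. DESeq2 called 63 genes, and 3 were called by edgeR without Sagunja-tang replicate 1.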

How the data were processed

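RNA was sequenced from HepG2 cells with MGI directional mRNA libraries, per the labels. The authors deposited RSEM expected counts per gene; the submitters' processing notes name RSEM 1.3.3, STAR 2.7.3a, FastQC 0.11.9, Trim Galore 0.6.5 and build hg38 (GRCh38). The annotation release is not given in the sources used here. Of 270 columns 60 had labels, 210 were not used, and 42 were read (33 of Samul-tang and the herbs, 6 of Sagunja-tang, 3 of vehicle). Of the deposited expected counts in these, 8.18% were not whole (tolerance 1e-09), and all were rounded. RSEM divides reads among similar genes, so near-copies are uncertain. Symbols were matched for 41324 of 60675 identifiers, holding 99.5% of counts.

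Tests used edgeR 4.0.16 (R 4.3.3): TMM factors (0.901 to 1.09), filterByExpr (15617 genes kept), quasi-likelihood F tests and Benjamini-Hochberg adjustment over all genes, with calls at an adjusted p below 0.05. Fit 1 used dose and formula (33 libraries, 29 residual degrees of freedom). Fit 2 gave each of 15 groups of extract and dose a mean (18 residual degrees of freedom) and all herb, dose and step contrasts came from it. Distances used a pseudocount of 0.5 CPM. Named genes were the largest calls in each direction per contrast with a mean of at least 5 CPM, members of called lists, each herb's largest step genes, and a panel. Genes named in the ordering over all herb libraries, UGDH, CYP24A1, DLK1 and SYNM-AS2 were chosen after their values were seen. The members, panel and 31 gene lists were chosen with earlier results of these data known, and the contrasts at single doses and between steps were added after seeing the data. DESeq2 1.42.0, limma 3.58.1 and left-out libraries were alternatives. Some genes called against Sagunja-tang are not reported here.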

Additional observations from a re-analysis of the deposited data

Results flagged for a closer look

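In 21 cases the dose step of a panel gene differed between Samul-tang and a herb by edgeR's test of the difference itself (adjusted p below 0.05, log2 units, Samul-tang step minus herb step), with 1 Samul-tang library per dose and the spread of the herbs' replicates. These contrasts were chosen after seeing the data, and those against different herbs share the same Samul-tang libraries.

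CYP1A1 had a difference of −0.53 against Paeonia, 1.33 against Cnidium and 0.80 against Rehmannia. Enzymes of aldehyde and quinone reduction had smaller steps than in Cnidium, with −1.70 for AKR1B10, −1.51 for AKR1C1, −1.58 for PTGR1 and −0.42 for NQO1. GCLM stood at 0.44 against Paeonia and −0.70 against Cnidium. SLC7A11 stood at 0.88 against Angelica and −0.78 against Paeonia, and ASNS at −0.66 against Paeonia.

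The insulin-repressed genes had opposite signs against these herbs. IGFBP1 was at −2.63 against Paeonia and 1.12 against Cnidium, and G6PC1 at −0.91 and 1.39. HMGCS1, the sterol synthesis enzyme that makes HMG-CoA, was at −0.40 and 0.48. IGFBP3 stood at −2.95 and MT1G at 2.24 against Paeonia, and HAMP at −1.53 against Cnidium.

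The calls of NQO1 and HAMP against Cnidium were lost in edgeR when single replicates were left out (adjusted p from 0.052 to 0.16 and from 0.062 to 0.12), that of GCLM against Paeonia without either Paeonia replicate (0.071 and 0.073), and that of SLC7A11 against Angelica without Angelica replicate 2 (0.17).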

How the results depend on the processing

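With 1 Samul-tang library per dose, the depth limits counting error but not the unknown spread of that extract. Values below are counts of called genes, and the cause of each shift was not tested.

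Without the low count filter the counts were 1210 against Angelica, 264 against Rehmannia, 296, 128 and 110 against the herb mean at 500, 100 and 20 µg/mL, 166 for the Samul-tang step, 93 for the difference of steps from the herb mean, 95, 207 and 89 for the step against Angelica, Cnidium and Rehmannia, and 314 against Sagunja-tang. DESeq2 called 640 against Angelica, 26 and 11 against the herb mean at 100 and 20 µg/mL, 1 for the difference of steps, 2 and 2 for the step against Angelica and Rehmannia, 63 against Sagunja-tang and 3 for formula against herbs. The model of dose and extract gave 21, 1154, 12 and 1 for Angelica, Paeonia, Cnidium and Rehmannia. Most calls made without the low count filter lay among genes that pass it. These were 1202 of 1210 against Angelica, 261 of 264 against Rehmannia and 166 of 166 for the Samul-tang step.

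Formula against herbs gave 144 with equal means of 15 groups, 1 without all libraries of Angelica, 7 without Paeonia, 2 without Cnidium, and 0 to 1 over single left-out replicates. Without the Rehmannia 20 µg/mL replicate 1, chosen after seeing the data, the counts were 818 against Angelica, 152, 14 and 4 against the herb mean at 500, 100 and 20 µg/mL and 68 for the step. Without the Angelica 20 µg/mL replicate 3 the count against Angelica was 76.

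Leaving out each replicate number of a herb in turn, or 1 of these 2 libraries, gave 45 to 818 against Angelica, 1851 to 3688 against Paeonia, 221 to 548 against Cnidium, 49 to 123 against Rehmannia, 38 to 152, 3 to 15 and 1 to 5 against the herb mean at 500, 100 and 20 µg/mL, 37 to 68 for the Samul-tang step, and 0 to 1, 1279 to 2496, 74 to 132 and 1 to 2 for the step against Angelica, Paeonia, Cnidium and Rehmannia. Against Sagunja-tang it gave 3 to 4.

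The median Samul-tang step over the Angelica step genes ran from −0.0656 (without Angelica replicate 3) to 0.283, and over the Rehmannia step genes from −0.0839 (without Angelica replicate 3) to 0.185, and it was also below 0, at −0.0384, without Paeonia replicate 3. No named gene turned its direction in a call.

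Samul-tang shares only replicate number 1 with Cnidium, Rehmannia and Sagunja-tang, and that number is not stated to mark a culture or day. With the replicate block the count against Angelica was 930, and no other count fitted with the block moved by over 1.5 times.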

Other observations

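Of 11 iron and hepcidin genes tested, 3 were higher (HAMP, ID1 and ID3) and 1 lower (SLC40A1, the iron exporter) in Samul-tang than in Paeonia, where 10.3% of all genes were higher and 10.6% lower. Against Cnidium 3 were lower (HAMP, ID1 and the ferritin heavy chain FTH1) and none higher, where 1.01% of all genes were lower. Nuclear genes of oxidative phosphorylation were higher than in Paeonia in 9 of 34 cases with none lower, by edgeR over the 3 doses, beside the same 10.3% of all genes.

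ZNG1F, one of several near-identical copies of a zinc-dependent GTP-binding protein, sat at 2 levels. It held 17.5, 16.0 and 5.77 CPM in Samul-tang at 500, 100 and 20 µg/mL. Because reads can be divided among these copies, its called step and its differences from the herbs are uncertain.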
